A study of Triticum aestivum with 39 samples.

Results

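CYP86-TA is a wheat transcript that the Affymetrix Wheat GeneChip carries among its own control sequences, and it was measured by 3 control probesets. They were chosen by the start of their identifier, AFFX-Ta_CYP86-TA, and are 3 of the 61290 probesets on the array. The suffixes 3, M and 5 name a probeset towards the 3' end, in the middle and towards the 5' end of the transcript. The reference annotation used here paired none of these probesets with a gene, so the identity of the transcript rests on the name in the identifier. That name is the one of a cytochrome P450 family.

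Cytochrome P450 enzymes are haem proteins that insert an oxygen atom into small organic molecules. Members of the CYP86 family studied in Arabidopsis hydroxylate the terminal carbon of fatty acids, and the products are used to build cutin, the polymer of the cuticle, and suberin, the polymer of root and seed coat barriers. In target preparation for such arrays the first cDNA strand is primed at the poly-A tail, and probesets placed at the 5' end, in the middle and at the 3' end of one transcript are put on the array so that its parts can be read separately.

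RNA came from wild-type Triticum aestivum cv. Chinese Spring, with no transgene and no treatment, and each of 13 tissues was represented by 3 independent biological samples, each on an array of its own (39 arrays). From germinating seeds these were the coleoptile, the root and a tissue that the labels call embryo. The study itself lists coleoptile, radicle and mesocotyl at this stage, so the tissue labelled embryo matches its mesocotyl. The label is kept here. From seedlings the tissues were the root, the crown and the leaf. From older plants they were the immature inflorescence, and, before anthesis, the floral bracts, the pistil and the anthers, then the caryopsis at 3 to 5 DAP and the embryo and endosperm at 22 DAP. The array was not designed to separate the homoeologous copies of wheat genes, and which copies these 3 probesets read was not examined. In bulk tissue, a smaller number of expressing cells and less RNA in each cell cannot be told apart.

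The values are MAS5 signals, a linear measure of probeset brightness scaled to the same overall mean on each array. The median signal of an array lay between 59.4 and 92.4. The 64 probesets for reporter genes, which wild-type wheat does not carry, gave the background: their median signal was 5.94 to 19.7 on the arrays, although 1 of them was very bright on each. The tissue labels were checked against marker genes. Serpin-Z2B, a grain serpin, averaged 15.52 on the log2 scale in endosperm and at most 5.28 in the other tissues. The other markers of the 22 DAP tissues were less confined. GAG56D and Pur-A1 averaged 16.30 each in the endosperm, and 7.46 and 6.49 in the 22 DAP embryo. Em and WGA2, the embryo markers, averaged 15.10 and 14.72 in the 22 DAP embryo, and 11.15 and 10.74 in the endosperm. Carry-over between these samples was not tested. PRK, an enzyme of the Calvin cycle, averaged 15.57 in leaf, 14.25 in bracts, 11.95 in caryopsis and 11.04 in 22 DAP endosperm. OEE2, also a marker of green tissue, averaged 15.80 in leaf, 14.72 in bracts, 13.64 in caryopsis and 12.61 in inflorescence. For petC, the third such marker, 1 probeset averaged 15.50 in leaf, 14.45 in bracts and 13.58 in caryopsis. The other petC probeset was low in all tissues, at most 5.41 (in bracts), and averaged 4.54 in leaf. The protein of the anther, raftin1a, averaged 9.80 in anthers and at most 6.89 elsewhere. The 9 arrays of floral bracts, pistil and seedling root stood apart in the polyadenylated spike-in controls: the dap control averaged 4.33 to 4.93 there and 8.71 to 11.57 on the other 30 arrays (log2 scale). The probeset of wheat 18S rRNA separated the same arrays, with signals of 18.3 to 55.0 on the 9 and 137 to 7728 on the other 30. The split was thus not confined to the added controls, and its reason was not tested. The hybridization controls overlapped between these sets of arrays, at 11.37 to 11.81 and at 11.19 to 12.97.

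The 3' probeset was brightest in the pistil and dimmest in the floral bracts, and it separated the tissues most widely of the 3 probesets. In the pistil its signals were 1483, 1112 and 1619, in the coleoptile of germinating seeds 1120, 956 and 1099, and in the caryopsis 743, 877 and 999. These 3 tissues held the highest signals, and the lowest pistil array lay below the highest coleoptile array. The seedling leaf followed with 627, 694 and 703, the crown with 483, 515 and 632, and the immature inflorescence with 445, 417 and 624. The arrays of crown and inflorescence overlapped with one another, and crown overlapped with leaf at its highest array.

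Both root tissues and the embryo of germinating seeds lay in the middle of the order. The signals were 477, 593 and 168 in the root of germinating seeds, 326, 371 and 358 in the embryo of germinating seeds and 292, 328 and 348 in the seedling root. One array of the root of germinating seeds, replicate 3, was well below the other two, and this tissue had the largest replicate spread of the 3' probeset (8.57 ± 0.92 on the log2 scale, SD, n = 3). The late grain tissues were lower, with 214, 146 and 102 in the 22 DAP endosperm and 100.7, 141 and 113 in the 22 DAP embryo, and their ranges overlapped.

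Anthers and floral bracts had the lowest signals of the 3' probeset. They were 9.72, 59.6 and 39.98 in anthers and 7.21, 23.5 and 32.9 in bracts. The ranges overlapped, and none of these 6 arrays reached the lowest array of any other tissue. On the anther arrays 10 to 40 of the 64 reporter probesets were brighter than the 3' probeset, and on the bract arrays 7 to 25 were, against 1 to 4 on the arrays of the other tissues. The 3' level in these 2 tissues was thus not clearly above background, and a difference from them depends on the offset of 16 that was added to each signal before the log2 was taken.

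**Figure D1:**
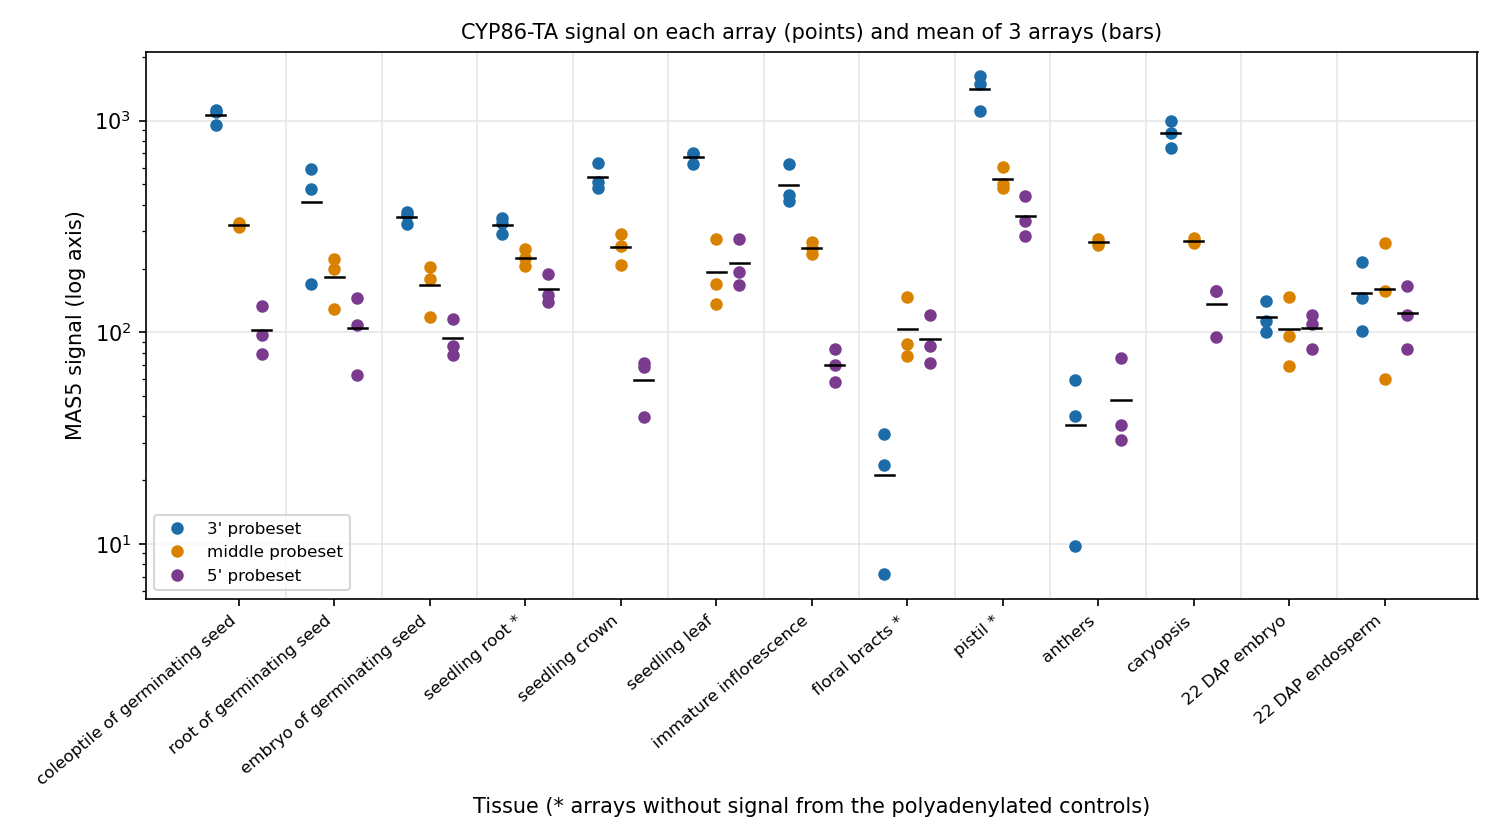
MAS5 signal (log axis) of the 3', middle and 5' CYP86-TA probesets on each of 39 arrays, by tissue, with points for arrays and bars for the mean of 3 arrays. The 3' signals run between 7.21 in floral bracts and 1619 in pistil, and the 5' and middle signals cover narrower ranges; asterisks mark the tissues whose arrays lacked signal from the polyadenylated spike-in controls.

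The log2 mean of the 3' probeset was 10.45 ± 0.28 in the pistil (SD, n = 3) and 5.15 ± 0.55 in the bracts, a span of 5.30 over the tissue means. The order of the other means was coleoptile 10.07 ± 0.12, caryopsis 9.79 ± 0.21, leaf 9.43 ± 0.09, crown 9.12 ± 0.20 and inflorescence 8.98 ± 0.30. Below these came the embryo of germinating seeds at 8.52 ± 0.09, the seedling root at 8.40 ± 0.12, the 22 DAP endosperm at 7.35 ± 0.48, the 22 DAP embryo at 7.06 ± 0.22 and the anthers at 5.58 ± 0.80. Most steps of this order were small against the replicate spread. Of the 12 pairs of neighbouring tissues, 2 passed the test described next: the seedling root was above the 22 DAP endosperm by 1.05 (adjusted p = 0.0143, limma; 14.6% of all probesets called in that direction) and the 22 DAP embryo was above the anthers by 1.48 (adjusted p = 0.000684, limma; 14.7% called). Without replicate 3 of the endosperm the first of these was no longer called (0.81, adjusted p = 0.0932), nor was it without replicate 3 of the seedling root (0.99, adjusted p = 0.0459).

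Variation over the 13 tissues was tested with limma's moderated F test on all 39589 probesets fitted, with Benjamini-Hochberg adjustment. Of these, 70.8% passed at an adjusted p under 0.05, and so did all 3 CYP86-TA probesets. The F statistic was 45.7 for the 3' probeset (adjusted p = 9.36e-15), 10.9 for the 5' probeset (adjusted p = 2.34e-07) and 7.92 for the middle probeset (adjusted p = 5.95e-06). The low 3' level against the 5' level in bracts was known when the transcript was chosen, so the fit was repeated without the bract arrays, and all 3 passed there too, with adjusted p = 2.31e-12 for the 3', 3.64e-07 for the 5' and 4.27e-05 for the middle probeset.

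Each pair of tissues was then compared, and a pair was called at an adjusted p under 0.05 and a log2 difference of at least 1. Over all probesets, 23.2% of the 78 pairs were called. The 3' probeset was called in 54 pairs, 11 of them with floral bracts, and the 5' and the middle probeset in 22 pairs each. Of the 66 pairs that did not involve floral bracts, 22.7% were called over all probesets, with a median of 11 pairs a probeset. The 3' probeset was called in 43 of these, and 95.43% of the probesets had fewer. The 5' probeset was called in 20 and the middle probeset in 15, where 66.91% and 57.11% of the probesets had fewer. Among the 10 tissues whose arrays did not stand apart in the spike-in controls, 22.3% of the 45 pairs were called over all probesets, and the 3' probeset was called in 28 (62.2%), the 5' probeset in 7 (15.6%) and the middle probeset in 6 (13.3%). The shares of the 5' and middle probesets were below this pooled share but near the median of 8 pairs a probeset. Fewer pairs were called for 43.95% of the probesets than for the 5' and for 40.26% than for the middle probeset. For the 3' probeset it was 93.95%. Differences of the 3' and 5' probesets from bracts were not read as tests.

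Among the 12 tissues other than bracts, the 3' level of the pistil was higher than that of 9 of the other 11. The exceptions were the coleoptile (0.39 higher in pistil, SE 0.34, adjusted p = 0.457, limma) and the caryopsis (0.67 higher in pistil, SE 0.34, adjusted p = 0.169, limma). The anthers were lower than all 11, and the 22 DAP embryo and the 22 DAP endosperm were each lower than 9 and higher than the anthers. The pistil exceeded the anthers by 4.88 (SE 0.34, adjusted p = 3.99e-13, limma), where 14.5% of all probesets were called higher in pistil. The coleoptile exceeded the seedling root by 1.67 (adjusted p = 0.000284, limma), with 7.17% of all probesets called in that direction, and the embryo of germinating seeds by 1.55 (adjusted p = 0.00255, limma), with 1.3% called. Without replicate 3 of the root of germinating seeds, this tissue was no longer called against the coleoptile (0.97 higher in coleoptile) or the caryopsis (0.69 higher in caryopsis) with the 3' probeset. The 2 root tissues did not pass against each other, with a difference of 0.17 (SE 0.34, adjusted p = 0.858, limma). Pistil and seedling root were on the arrays that stood apart in the spike-in controls. Where either is set against a tissue outside those arrays, tissue and set of arrays cannot be told apart. This holds for each of the CYP86-TA probesets.

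**Figure D2:**
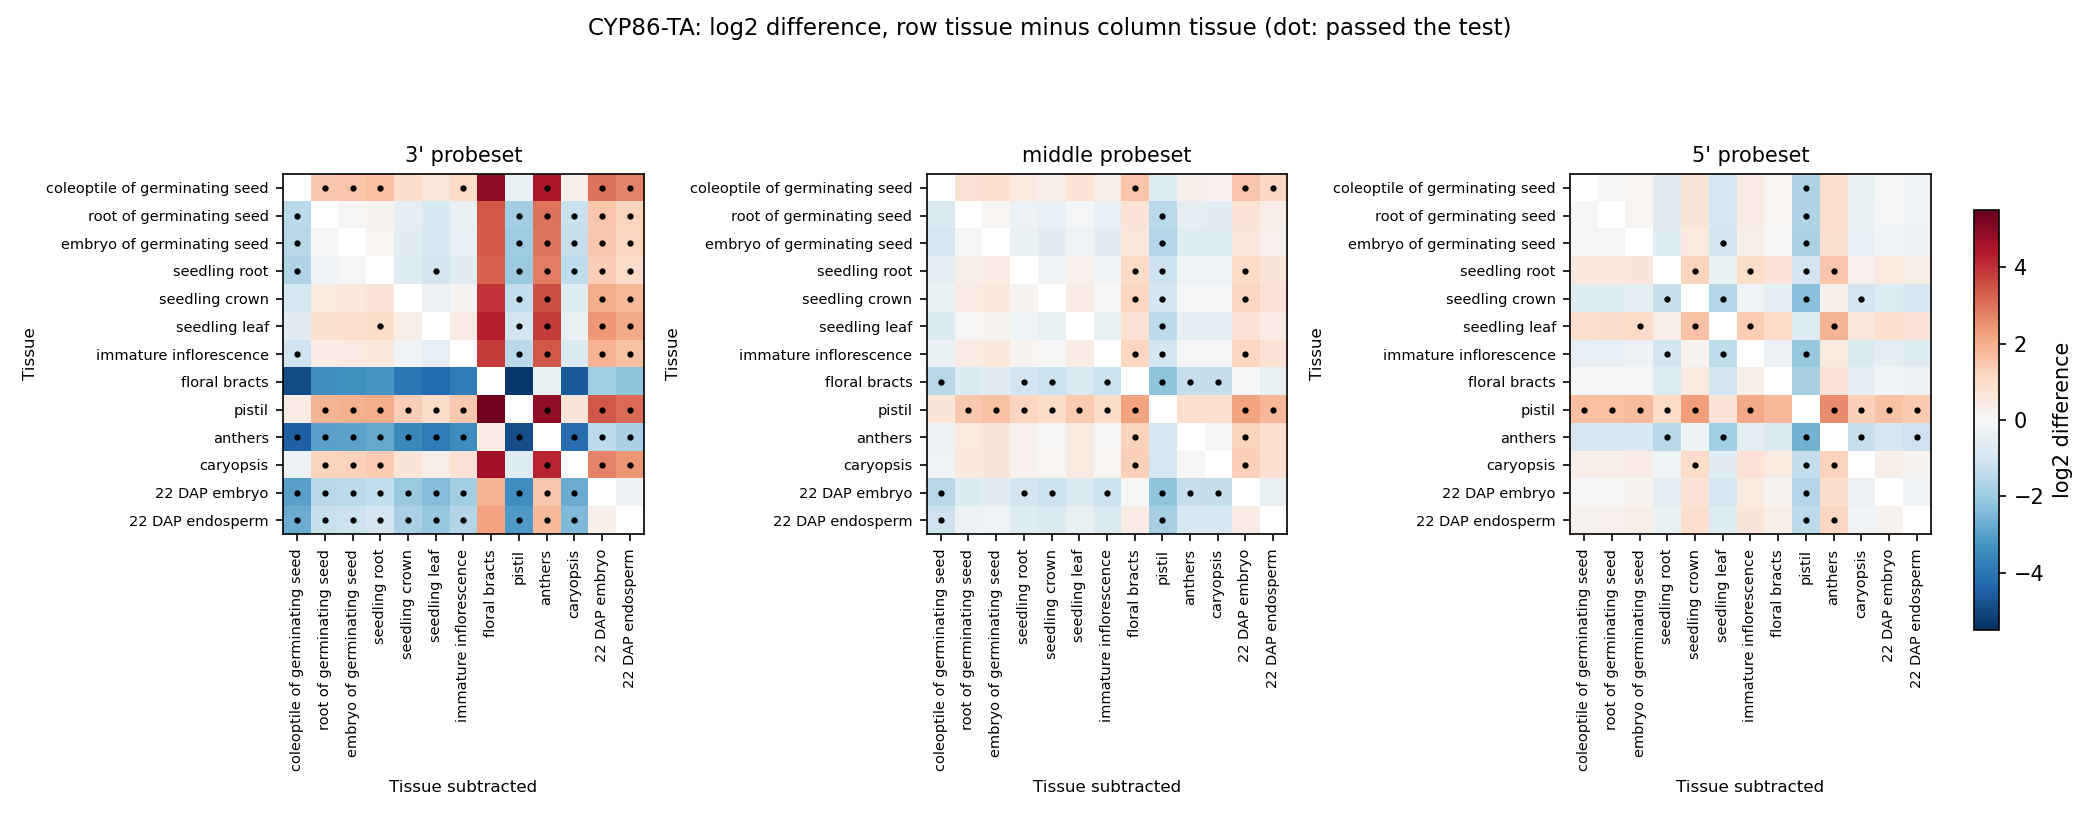
Log2 difference between each pair of tissues, row tissue minus column tissue, for each CYP86-TA probeset, with a dot where the pair was called by limma. Colours are strongest in the panel of the 3' probeset, in the rows and columns of floral bracts and anthers, and the pistil row is red in all panels. Pairs of floral bracts carry no dots in the 3' and 5' panels, where they are shown as values only. Their dots in the middle panel are no independent support, because the choice of the transcript covered those levels.

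The middle probeset ranked the tissues differently, with anthers near the top. Its signals were 483, 502 and 604 in the pistil, 325, 327 and 313 in the coleoptile and 277, 265 and 271 in the caryopsis. In anthers they were 264, 276 and 258, a range within which the caryopsis arrays also fell in part, and the replicates of these last 3 tissues were close together (SD of 0.03 to 0.05 on the log2 scale). The lowest arrays were in the 22 DAP endosperm at 60.1, 263 and 156, in the 22 DAP embryo at 146, 96.2 and 69.2 and in the floral bracts at 87.7, 147 and 77.3. These tissues overlapped with one another, and the endosperm had the largest replicate spread of the middle probeset (7.27 ± 0.95, SD, n = 3).

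The other tissues lay between. The middle signals ran from 234 to 267 in the inflorescence, 208 to 293 in the crown, 205 to 248 in the seedling root, 136 to 276 in the leaf, 128 to 223 in the root of germinating seeds and 118 to 202 in the embryo of germinating seeds. No pair of neighbouring tissues in the order of middle means was called. With bracts set aside, the pistil mean of 9.08 ± 0.17 was above that of 8 of the other 11 tissues. The 22 DAP embryo was among them (2.23 higher in pistil, adjusted p = 8.19e-07, limma, 11.5% of all probesets called). This embryo, at 6.86 ± 0.47, was lower than 7 of the other 11. Floral bracts, at 6.86 ± 0.43, were called lower than 7 of the other 12 tissues, the pistil among them (2.22 higher in pistil, 7.48% of all probesets called). The choice of the transcript covered the bract levels of the middle probeset, so these bract calls are no independent support.

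The 5' probeset was again brightest in the pistil, followed by the seedling leaf. Signals were 336, 286 and 439 in the pistil, 276, 168 and 193 in the leaf and 139, 189 and 150 in the seedling root. The lowest pistil array was above every array of the other tissues. The floral bracts gave 71.5, 86.1 and 120, the seedling crown 68.2, 39.7 and 71.2 and the anthers 75.7, 31.0 and 36.5. Bracts thus overlapped with the highest anther array and lay just above the crown, and they also overlapped with the coleoptile, at 96.8, 132 and 78.6. On the anther arrays 9 to 20 reporter probesets were brighter than the 5' probeset, so its level there was near background. The remaining tissues, caryopsis, both 22 DAP tissues, inflorescence and the root and embryo of germinating seeds, had 5' signals between 57.9 and 166.

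The pistil mean of the 5' probeset, 8.51 ± 0.30 (SD, n = 3), was higher than that of 10 of the other 11 tissues when bracts were set aside. The leaf, at 7.81 ± 0.34, was the exception (0.70 higher in pistil, SE 0.29, adjusted p = 0.0541, limma). The leaf was higher than 4 tissues, among them the seedling crown by 1.59 (adjusted p = 4.69e-05, limma) with 11.8% of all probesets called in that direction. With the arrays scaled to the hybridization controls this difference was 0.77 (adjusted p = 0.0356) and was not called. The seedling crown was lower than the seedling root by 1.23 (crown minus root -1.23, adjusted p = 0.00135, limma), with 9.22% called, but with an offset of 64 the root was above the crown by 0.86 and the pair was not called. No neighbouring tissues in the order of 5' means were called.

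The probesets were then set side by side over the 66 pairs without bracts. All 3 called the same 7 pairs, each with the pistil, whose arrays lacked signal from the polyadenylated controls, as the higher tissue: against both tissues of the 22 DAP grain, the root and embryo of germinating seeds, the seedling root, the crown and the inflorescence. In these 7 pairs, 9.76% (against the inflorescence) to 15% (against the root of germinating seeds) of all probesets were called higher in pistil. How often other groups of probesets share calls was not examined. The pair of pistil and seedling root lies within the arrays that stand apart, and the other pairs set such arrays against the rest. Among the 10 other tissues, 0 pairs were called by all 3. Under every offset, scaling and fit tried, 4 of the 7 were called by all 3 probesets, and those of the seedling root, the crown and the inflorescence were not. The 3' probeset alone called 23 pairs. The 3' and 5' probesets both called 12 pairs, in the same direction each time, and the middle and 5' probesets both called 7, also in the same direction. The 3' and middle probesets both called 15 pairs, 14 of them in the same direction.

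The exception was the 22 DAP embryo against the anthers. The 3' probeset was 1.48 higher in the embryo (adjusted p = 0.000684, limma), where 14.7% of all probesets were called higher in embryo. The middle probeset was 1.28 lower in the embryo (embryo minus anthers -1.28, adjusted p = 0.00113, limma), where 18.1% were called in that direction. The 5' probeset was 0.97 higher in the embryo (adjusted p = 0.00696, limma), under the size of 1 needed for a call. The 3' difference fell under that size with an offset of 64 (embryo above anthers by 0.89), and the middle difference did with the arrays scaled to the hybridization controls (anthers above embryo by 0.83). With the middle probeset and bracts set aside, the anthers were called above 1 of the other 11 tissues, the 22 DAP embryo, and 10 pairs were not called. The caryopsis exceeded the anthers by 4.21 with the 3' probeset (adjusted p = 9.03e-12, limma, with 12.8% of all probesets called in that direction), by 1.29 with the 5' probeset (adjusted p = 0.000515, limma, but 0.84 and no call with an offset of 64) and by 0.03 with the middle probeset (SE 0.31, adjusted p = 0.958, limma).

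Leaf and root of the seedlings were less clearly apart. The leaf was 1.03 above the seedling root with the 3' probeset (SE 0.34, adjusted p = 0.0171, limma, 14.3% of all probesets called), but 0.26 with the arrays scaled to the hybridization controls (adjusted p = 0.646), and the pair was also lost without replicate 1 of the root or replicate 3 of the leaf (adjusted p = 0.0553 and 0.0460). The same difference, leaf minus root, was 0.36 with the 5' probeset (SE 0.29, adjusted p = 0.368, limma) and -0.26 with the middle probeset (SE 0.31, adjusted p = 0.580, limma). Over the 39 arrays Pearson's r was 0.58 between the 3' and middle probesets, 0.49 between the 3' and 5' probesets and 0.32 between the middle and 5' probesets. On the 30 arrays without bracts, pistil and seedling root the same values were 0.32, 0.41 and -0.09. These are descriptions across arrays that share tissues and, on each array, one scaling.

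**Figure D3:**
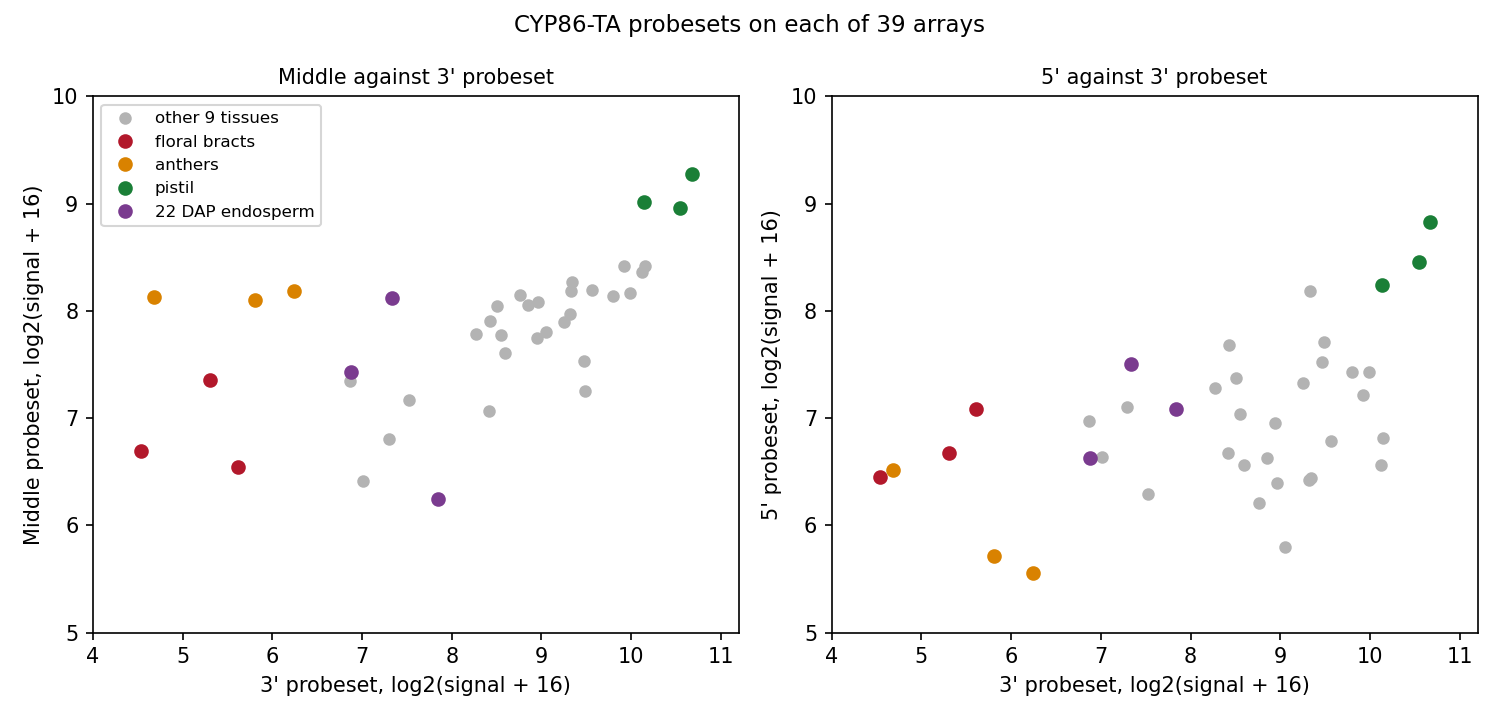
Middle probeset (left) and 5' probeset (right) against the 3' probeset of CYP86-TA, in log2(signal + 16), for each of 39 arrays, with 4 tissues in colour. The anthers lie at the left of both panels, with middle values near 8.14 and low 5' values, and the pistil lies at the upper right of both.

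The 3' minus 5' difference was taken within each array. Probesets differ in how strongly they bind their target, so the size of this difference in one tissue cannot be read as more or less of one end of the transcript, and only its movement between tissues was compared. In floral bracts the 5' signal was above the 3' signal on all 3 arrays: the difference was -1.91, -1.37 and -1.47 on the log2 scale, with a mean of -1.59 ± 0.29 (SD, n = 3). The ratio of 3' over 5' signal was 0.101, 0.274 and 0.274 there, and in the pistil it ran from 3.69 to 4.41. The 3' signals of bracts were not clearly above background, so the size of the ratios there is imprecise. No array of another tissue except replicate 1 of the anthers had a ratio or difference as low.

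The other tissues ran mostly the other way. The difference was above 0 on 33 of the 39 arrays. It averaged 3.20 ± 0.44 in the coleoptile, 2.90 ± 0.34 in the crown, 2.57 ± 0.20 in the caryopsis, 2.56 ± 0.34 in the inflorescence and 1.95 ± 0.13 in the pistil. It was 1.76 ± 0.27 in the embryo and 1.71 ± 0.42 in the root of germinating seeds, 1.62 ± 0.43 in the leaf and 0.95 ± 0.20 in the seedling root. In the 22 DAP endosperm (0.28 ± 0.46) and the 22 DAP embryo (0.16 ± 0.24) the arrays lay on both sides of 0, and in the anthers they were -1.83, 0.69 and 0.09.

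The pistil, the seedling root and the bracts shared the arrays on which the polyadenylated controls were near background, and the pistil and the bracts were at opposite ends of the 3' order. The middle probeset was 1.54 higher in coleoptile than in bracts (adjusted p = 0.00016, limma; 9.92% of all probesets called in that direction) and 1.28 higher in anthers than in bracts (adjusted p = 0.00123, limma; 15.5% called). The second of these was 0.52 with the arrays scaled to the hybridization controls (adjusted p = 0.211) and 0.996 with an offset of 64, and was called in neither. The choice of the transcript covered the levels of the middle probeset too, so its calls against bracts are no independent support. Both pairs also set bracts against tissues whose arrays had spike-in signal, and tissue and set of arrays cannot be told apart there.

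Without the bracts, the difference between probesets still varied over the 12 remaining tissues. A permutation test of the F statistic (36 arrays, 100000 permutations of the tissue labels) gave F = 15.9 for 3' minus 5' (p = 1e-05, the smallest that these permutations can give, 1.5e-05 after adjustment over the 3 differences). For 3' minus middle the permutation test gave F = 13.3 (p = 4e-05, adjusted 4e-05), and for middle minus 5' F = 11.3 (p = 1e-05, the smallest possible, adjusted 1.5e-05). The 3' minus middle difference was highest in the leaf (1.77 ± 0.57) and lowest in the anthers (-2.56 ± 0.78). The middle minus 5' difference was highest in the anthers (2.21 ± 0.54) and lowest in the leaf (-0.15 ± 0.27).

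The other wheat control transcripts with 3' and 5' probesets were read the same way, as a description. For actin, of the cytoskeleton, the 3' minus 5' difference was highest in floral bracts (2.04 ± 0.14) and lowest in the 22 DAP endosperm (-0.99 ± 0.61). For G-6-PDH, glucose-6-phosphate dehydrogenase, it was highest in the caryopsis (2.81 ± 0.09) and lowest in the bracts (1.003 ± 0.18), and for Sucsyn, sucrose synthase, it was highest in the caryopsis (6.07 ± 0.25) and lowest in the bracts (3.31 ± 0.21). Bracts thus ranked highest for one of these transcripts and lowest for a pair of them, which kept the 3' signal above the 5' signal there. For G-6-PDH and Sucsyn the low difference was not particular to bracts, since the seedling root and the pistil were next lowest. In both transcripts the 9 arrays that stood apart in the spike-in controls all lay below every other array. The other control transcripts and CYP86-TA did not separate these 9 arrays from the rest. The reason was not tested.

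For gapdh, an enzyme of glycolysis, the difference was highest in the leaf (-0.97 ± 0.33) and lowest in the anthers (-2.86 ± 0.12). For ef1a, an elongation factor of translation, it was highest in the anthers (1.26 ± 0.13) and lowest in the inflorescence (-1.42 ± 1.36). Ubiquitin moved least, between -0.65 ± 0.05 in the coleoptile and -1.11 ± 0.02 in the anthers. The tissue means of CYP86-TA covered 4.79, and those of the other 6 transcripts between 0.46 for Ubiquitin and 3.03 for actin. The low difference in bracts was not shared by all control transcripts, and the part that RNA quality or the handling of the 9 arrays plays in it was not tested.

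**Figure D4:**
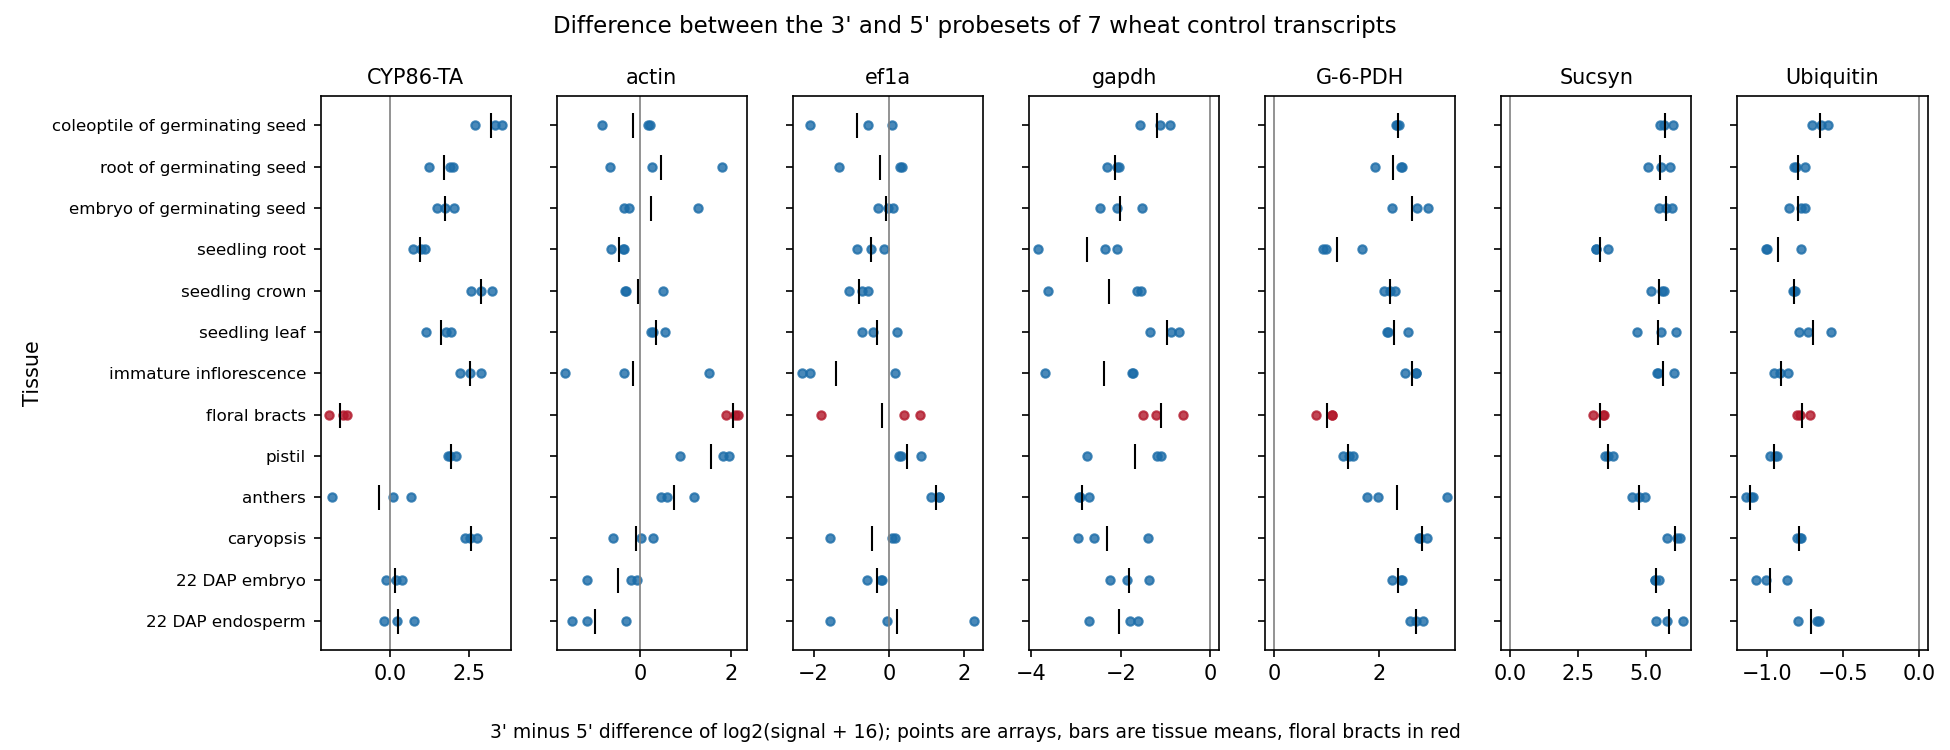
Difference between the 3' and 5' probesets, in log2(signal + 16), of CYP86-TA and 6 other wheat control transcripts, with a point for each array, a bar for each tissue mean and floral bracts in red; the horizontal scale differs between panels. Bracts are at -1.59 for CYP86-TA, the lowest tissue, and at 2.04 for actin, the highest tissue.

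The probesets with the most similar pattern were found by Pearson's r over the 39 arrays. For the 3' probeset these were TaAffx.111474.1.S1_at (r = 0.88), highest in the coleoptile at 9.92, Ta.6416.1.S1_at (r = 0.88), highest in the caryopsis at 13.19 and lowest in the bracts at 8.66, and Ta.18179.1.S1_at (r = 0.88), highest in the leaf at 14.88. Among probesets with a gene symbol they were those of the histone gene H2A-3 (r = 0.76), of XTH, which is named after enzymes that cut and rejoin xyloglucan in the cell wall (r = 0.76), and of GLU1A (r = 0.72). H2A-3 averaged 13.05 in the pistil, 8.07 in the anthers and 8.47 in the bracts.

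For the middle probeset the closest were Ta.5550.1.S1_at (r = 0.78), Ta.16198.1.S1_at (r = 0.76) and TaAffx.107126.1.S1_at (r = 0.73), each highest in the pistil. The closest with a symbol were la-17 (r = 0.53), amy1 (r = 0.53) and GA20ox1d (r = 0.53), a gibberellin oxidase by its name. For the 5' probeset they were TaAffx.120014.1.S1_at (r = 0.80), TaAffx.128595.1.S1_at (r = 0.78) and TaAffx.32522.1.S1_at (r = 0.75), each highest in the pistil and lowest in the anthers. Those with a symbol were PCS1 (r = 0.57), amy1 (r = 0.45) and TUB (r = 0.38). None of the 3 closest probesets of any kind was shared between the CYP86-TA probesets. The similar probesets, with and without a symbol, were picked by likeness over these same arrays. High and low tissues that they share with a CYP86-TA probeset follow largely from that choice and are no independent support.

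Genes of lipid metabolism and other cytochrome P450 genes were looked for by symbol among the 1273 probesets that the reference pairs with a gene, and LTP3 was the only match. LTP3 is named as a lipid transfer protein, a small secreted protein that binds lipids. It was measured by 1 fitted probeset, which varied over the tissues (F = 302, adjusted p = 3.14e-24, limma), as did 70.8% of all probesets. It was called in 64 of the 78 pairs, against a median of 14 over all probesets. Another LTP3 probeset, marked as cross-hybridizing and not fitted, read higher, most of all in the crown (12.18 against 8.50) and the anthers (12.45 against 9.28). The fitted probeset averaged 13.73 ± 0.03 in the pistil and 13.57 ± 0.16 in the bracts, the tissues at the ends of the 3' order of CYP86-TA, with a difference of 0.16 (adjusted p = 0.767, limma). It was lowest in the seedling root, at 4.28, and highest in the 22 DAP endosperm, at 14.39.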

How the data were processed

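The authors deposited 1 linear MAS5 signal intensity per probeset and array. The signals had a trimmed mean of 500.2 to 500.4 on every array (2% off each end). Version and parameters of the processing are not given in the sources used here, and the study's own analysis used another normalization (RMA). The number of arrays limits the precision.

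Signals were read as log2(signal + 16). The fit (limma 3.58.1, R 4.3.3) held 39564 probesets, without reporters, controls, probesets marked as cross-hybridizing (suffixes s, x and a) and those with .A1 in the identifier, plus 25 wheat control probesets. It had 1 mean per tissue, with Benjamini-Hochberg adjustment over the 39589. Differences between probesets were tested by permutation (numpy 2.4.6), and the p-values were adjusted with scipy 1.17.1. Both procedures were tested on simulated data. Named probesets were all of CYP86-TA, the other wheat control transcripts, the 3 most correlated probesets with and without a symbol, members of the lipid list and tissue markers. The members and lists were chosen with earlier results of these data known. Alternatives covered offsets, scaling, filters, limma options, thresholds and arrays left out.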

Additional observations from a re-analysis of the deposited data

Results flagged for a closer look

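Within CYP86-TA the difference between probesets was not the same in all tissues, by a test of the difference itself over the 12 tissues other than floral bracts. The F statistic was 15.85 for 3' minus 5', 13.34 for 3' minus middle and 11.3 for middle minus 5' (permutation tests, p = 1e-05, 4e-05 and 1e-05). Without pistil and seedling root as well, the p-values over 10 tissues were 1e-05, 6e-05 and 1e-05.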

How the results depend on the processing

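All 3 probesets passed the F test under every alternative run. Unless stated otherwise, the pair counts and limma F tests of this section include the bract arrays. The 3' against 5' order in bracts was known when the transcript was chosen, so these values describe the processing and add no independent support. The pairs called changed most with the threshold and the offset. With a log2 difference of at least 2, the 3', 5' and middle probesets were called in 29, 3 and 2 pairs. With an offset of 64, the 5' probeset was called in 14 and the middle probeset in 12. The 3' minus 5' difference in bracts was -2.27 with an offset of 1 and -0.88 with an offset of 64. Leaving out 1 array at a time gave 51 to 55, 20 to 27 and 19 to 27 pairs for the 3', 5' and middle probesets, F test adjusted p-values of 3.36e-16 to 1.17e-13, 7.70e-08 to 3.10e-06 and 2.34e-07 to 4.36e-05 (limma), a bract difference of -1.69 to -1.42 and a permutation p of 1e-05 each time. At the thresholds of the report, 32 of the 43 pairs of the 3' probeset without bracts were called under every other alternative, as were 11 of 20 for the 5' and 7 of 15 for the middle probeset, and none changed sign. Leaving out the bract arrays, an alternative chosen after seeing the data, left 43, 20 and 15 of the 66 other pairs called.

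The pistil had the highest mean of each probeset under every offset and scaling. The lowest 3' mean was in bracts, except with scaling to the hybridization controls, where anthers were lowest (5.30 in anthers, 5.33 in bracts). The 3' call of the 22 DAP embryo above the anthers was lost with an offset of 64 (0.89, adjusted p = 0.00323, limma), which lies under the size needed. Of the 3' neighbours, seedling root against endosperm was lost with an offset of 1 (adjusted p = 0.0629, limma) and with an offset of 64 (0.86, under the size needed).

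Replicate numbers did not pair the samples: same-numbered arrays of different tissues deviated with a correlation of -0.06 to 0.10 over 234 pairs. With replicate as a block, and with the bract arrays included, the pairs called were 54, 22 and 22 for the 3', 5' and middle probesets. The F test adjusted p-values were 6.70e-14, 8.24e-07 and 1.11e-05 (limma).

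Signals near the reporters limit the 3' level in bracts and anthers and the 5' level in anthers, and folds against them follow the offset.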
